A study of Mus musculus with 4 samples.

Results

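The 10 genes described here encode motogens and neurotrophic factors and their receptors. They are the ligands *Hgf*, *Gdnf*, *Bdnf* and *Ntf3* and the receptors *Met*, *Gfra1*, *Gfra2*, *Ret*, *Ntrk2* and *Ntrk3*, picked by gene name from the 56883 genes of the table, and all 10 had a row. Their transcripts were compared between 2 genotypes in cells of the mouse basal telencephalon at E14.5, with 2 RNA-sequencing libraries each. Control embryos were Sst-Cre/tdTomato, and *Dnmt1* KO embryos were Sst-Cre/tdTomato/Dnmt1 loxP2. Cells positive for the red fluorescent reporter tdTomato were isolated by fluorescence-activated sorting. Both genotypes are described as on a C57BL/6J background and carry Cre from the *Sst* locus and the Cre-dependent tdTomato reporter. The KO embryos carry in addition *Dnmt1* alleles whose floxed exons Cre removes. The strain name of this floxed line lists a further mouse strain beside C57BL/6, so that any sequence from it would go with the genotype. Cre is made once cells express *Sst*, so that the deletion takes place in cells after they have left the cell cycle. Each library holds cells pooled from several embryos, at 50000 cells per genotype, and the sexes were not kept apart, so that the spread between the libraries of a genotype is that between pools. DNMT1 is the DNA methyltransferase that adds methyl groups to cytosines in CG pairs. The comparison asks which transcripts of this group differ with the *Dnmt1* KO in the sorted pools. These were enriched for young SST interneurons but also held transcripts of other cell types, as given below.

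Hepatocyte growth factor (HGF) acts through MET, a receptor tyrosine kinase, and increases the motility of many migrating cells. Glial cell line-derived neurotrophic factor (GDNF) and its relative neurturin bind the lipid-anchored receptors GFRα1 and GFRα2, which recruit the receptor tyrosine kinase RET or the adhesion molecule NCAM to pass the signal on. Brain-derived neurotrophic factor (BDNF) is the main ligand of TrkB, encoded by *Ntrk2*, and neurotrophin-3, encoded by *Ntf3*, that of TrkC, encoded by *Ntrk3*. All 3 ligand families have been described to stimulate the migration or maturation of interneurons born in the basal telencephalon.

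The deposited values are normalized counts, that is, whole counts per gene divided by 1 size factor per library. The whole counts, which came from Salmon, are called reads here, and 6970247 to 8376711 reads were recovered per library. Genes whose normalized count averaged 10 or more over the 4 libraries were tested with limma on log2(normalized count + 1), on which scale all differences are given, with p adjusted over the 14323 genes tested and a threshold of 0.05. Of these genes, 17.3% were called, 8.3% as higher and 8.99% as lower in *Dnmt1* KO cells, and the median difference over all of them was -0.0033. Without the trend of the prior variance over expression, limma called 0 genes, with 3339 at an unadjusted p below 0.05. The targeted gene *Dnmt1* had normalized counts of 2238 and 2341 in control and 2164 and 2210 in KO libraries, a difference of -0.07 (SE 0.054, limma adjusted p = 0.461). A count over the whole gene also takes in the exons outside the deleted part and therefore does not check the genotype. Markers of SST interneurons were abundant in all 4 libraries, led by *Sst* at 5580 and 5963 in control and 8303 and 7825 in KO libraries. Those of radial glia were abundant too, led by *Vim* at 3827 and 3964 in control and 1861 and 1956 in KO libraries.

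Among the 10 genes, *Ntrk2* and *Met* were higher and *Gfra1* was lower in *Dnmt1* KO cells. *Ntrk2*, the TrkB gene, rose 1.32-fold and *Met*, the HGF receptor gene, 2.26-fold between the genotype means, whereas *Gfra1* fell to 0.374 of its control mean. *Gfra2*, *Ret* and *Ntrk3* did not pass the test, and the 4 ligand genes lay below the mean of 10 and were not tested. Thus 3 of the 6 genes tested were called, against 17.3% of all genes, and the median difference of the 6 was -0.03. The normalized counts of the genotypes did not overlap for these same 3 of 6 genes, which was also the case for 57.4% of all genes tested. The 6 passed the filter on their mean over all libraries, and the counts describe these 6 genes only. Without control replicate 2, *Ntrk2* was the 1 gene of the group called.

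**Figure D1:**
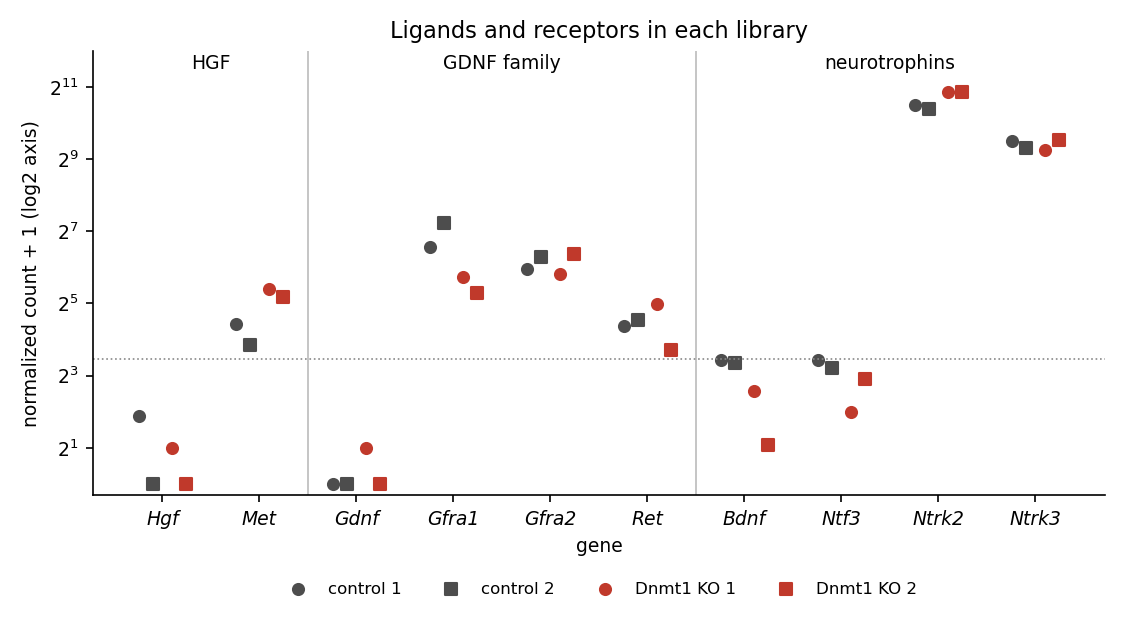
Normalized count plus 1 of each gene (y axis, log2 scale) in the 2 control (grey) and 2 *Dnmt1* KO (red) libraries, with circles for replicate 1 and squares for replicate 2. The dotted line marks a normalized count of 10, the mean required for the test. *Ntrk2* and *Met* sit higher and *Gfra1* lower in both KO libraries than in either control library, and *Hgf* and *Gdnf* sit near 0.

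The DNA just upstream of *Ntrk2* and *Gfra1* is shown for its CG pairs, the substrate of DNMT1. The windows are the 250 bases before the first annotated base of each gene in GENCODE release M39 of GRCm39, read 5′ to 3′ on the strand of the gene, with each CG in capitals.
Ntrk2, chr13:58953926-58954175, plus strand: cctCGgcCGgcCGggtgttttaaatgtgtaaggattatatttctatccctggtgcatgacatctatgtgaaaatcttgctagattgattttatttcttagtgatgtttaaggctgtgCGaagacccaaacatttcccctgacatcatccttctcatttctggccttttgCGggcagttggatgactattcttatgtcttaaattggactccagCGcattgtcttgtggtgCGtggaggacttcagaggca
Gfra1, chr19:58444347-58444596, minus strand: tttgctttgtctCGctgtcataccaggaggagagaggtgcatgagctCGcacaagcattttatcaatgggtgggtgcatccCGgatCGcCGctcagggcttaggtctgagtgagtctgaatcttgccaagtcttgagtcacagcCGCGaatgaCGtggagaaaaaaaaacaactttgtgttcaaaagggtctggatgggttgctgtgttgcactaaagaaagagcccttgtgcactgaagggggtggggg

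These windows hold 7 CG pairs for *Ntrk2* and 8 for *Gfra1*. CG reads the same on both strands. Over the same windows of the 12278 protein-coding genes tested, the median was 10 CG pairs with quartiles of 5 and 17, and 98.2% held at least 1. As many CG pairs or more as in the *Gfra1* window were found in 63.0% of windows, and as in the *Ntrk2* window in 68.2%. Both windows therefore lie within the common range. The *Gfra1* window also holds an exon of *Gm41876*, a long non-coding RNA gene on the other strand. *Ntrk2* has 40 annotated transcripts that start at different places, and the window lies before the outermost one. DNA methylation at these windows was not analysed here.

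*Met* lies on the plus strand of GRCm39 at chr6:17463749-17573979 and *Hgf* at chr5:16758041-16828178. *Met* had normalized counts of 20.6 and 13.3 in control and 41.4 and 35.0 in *Dnmt1* KO libraries. Both KO libraries were above both control libraries, with means of 38.2 ± 4.57 and 16.9 ± 5.17 (SD, n = 2 each). The difference of 1.15 (SE 0.358, 95% interval 0.39 to 1.92) had a limma adjusted p of 0.0372. These levels rest on 36 reads in the control and 74 in the KO libraries together, with exact Poisson intervals of 25.2 to 49.8 and 58.1 to 92.9 reads, which cover counting error only. The direction held when each library was left out in turn, at 0.86 to 1.45, but the call held only without control replicate 1 (limma adjusted p = 0.0412). The limma adjusted p was 0.203 without control replicate 2, 0.147 without KO replicate 1 and 0.0524 without KO replicate 2. DESeq2, which called 9.97% of the genes it gave an adjusted p, did not call *Met* (adjusted p = 0.208), whereas edgeR did (adjusted p = 0.0414).

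The ligand gene *Hgf* was barely detected, with normalized counts of 2.68 and 0 in control and 0.986 and 0 in KO libraries. These stand for 3 reads in 1 control library and 1 read in 1 KO library. No difference in *Hgf* was detectable at this depth. The sorted cells thus contained *Met* transcripts in every library and *Hgf* reads in 1 library of each genotype.

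The GDNF receptor gene *Gfra1* lies on the minus strand at chr19:58223212-58444346. It had normalized counts of 93.1 and 149 in control and 52.3 and 38.2 in *Dnmt1* KO libraries. Both KO libraries were below both control libraries, and control replicate 2 was the highest of the 4. The means were 121 ± 39.6 and 45.3 ± 9.93 (SD, n = 2 each), from 250 and 88 reads. The difference of -1.38 (SE 0.250, 95% interval -1.91 to -0.84) had a limma adjusted p of 0.0013. DESeq2 gave an adjusted p of 0.0017. Without control replicate 2 the difference was -1.04 and the limma adjusted p 0.0509, and without any other single library the gene was called, with differences of -1.16 to -1.71. Exons of *Gfra1* overlap exons of *Gm16277*, which had 0 reads in all 4 libraries, and of *Gm41876*, both on the opposite strand, and the strand setting of the counting is not given in the sources used here.

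*Gfra2*, which encodes the preferred receptor of neurturin, lies at chr14:71127472-71217280. It had normalized counts of 60.9 and 77.6 in control and 55.2 and 81.9 in KO libraries. The genotypes overlapped, with a difference of -0.03 (95% interval -0.54 to 0.48, limma adjusted p = 0.954). The lower bound of the *Gfra2* interval lies above the upper bound of the *Gfra1* interval. *Ret*, the signalling receptor shared by the GDNF family, lies at chr6:118128706-118174769 and had normalized counts of 19.7 and 22.5 in control and 30.6 and 12.02 in KO libraries. The KO libraries lay on either side of the control libraries. The difference in *Ret* was -0.12 with a 95% interval of -1.07 to 0.83 (limma adjusted p = 0.893), so that a change in either direction as large as that of *Ntrk2* lies within it. *Gdnf* itself (chr15:7840327-7867060) had 0 reads in both control libraries and 1 read in 1 KO library, where a count of 0 allows up to 3 reads as a one-sided 95% limit (3.69 as the upper bound of the exact Poisson interval used for the other genes).

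*Ntrk2* lies on the plus strand at chr13:58954176-59281784. It was the most abundant of the 10 genes, with normalized counts of 1452 and 1345 in control and 1838 and 1856 in *Dnmt1* KO libraries. Both KO libraries were above both control libraries, and they differed from each other by less than the control libraries did. The means were 1398 ± 76.3 and 1847 ± 13.2 (SD, n = 2 each). The difference of 0.40 (SE 0.061, 95% interval 0.27 to 0.53) had a limma adjusted p of 0.00031. It was called without each library in turn, at 0.35 to 0.46, and by edgeR and DESeq2. The gene has both full-length TrkB transcripts and truncated ones without the kinase domain, which a count per gene does not tell apart.

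*Ntrk3*, the TrkC gene, lies on the minus strand at chr7:77825707-78387760. It had normalized counts of 725 and 635 in control and 611 and 731 in KO libraries. The genotypes overlapped, and the difference of -0.02 (SE 0.096, 95% interval -0.23 to 0.18) had a limma adjusted p of 0.911. The *Ntrk3* interval does not reach that of *Ntrk2*, whose lower bound was 0.27. Exons of *Ntrk3* overlap those of *Gm9885* on the opposite strand, which had normalized counts of 14.3 to 19.7 across the 4 libraries.

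The ligand gene *Bdnf* (chr2:109505045-109557475) had normalized counts of 9.84 and 9.19 in control and 4.93 and 1.09 in KO libraries. Both KO libraries were below both control libraries, on 6 reads (exact Poisson interval 2.20 to 13.1) against 20 reads (12.2 to 30.9). *Ntf3* (chr6:126078375-126143873) had 9.84 and 8.17 in control and 2.96 and 6.56 in KO libraries, from 19 and 9 reads, again without overlap. Such a lack of overlap was found for 57.4% of all genes tested. With the required mean lowered to 1, the difference was -1.58 (SE 0.676, limma adjusted p = 0.157) for *Bdnf* and -0.87 (SE 0.608, limma adjusted p = 0.429) for *Ntf3*. Neither passed the threshold. Exons of *Bdnf* overlap those of *Gm45346* on the opposite strand, which had reads in KO replicate 2 alone, at a normalized count of 2.19, and exons of *Ntf3*, *Hgf* and *Gfra2* overlap opposite-strand genes that were not analysed here.

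Levels of different genes were compared as normalized counts per kilobase of the gene's representative transcript. In control cells the order was *Ntrk2* at 154.5 ± 8.43, *Ntrk3* at 34.3 ± 3.20, *Gfra1* at 20.2 ± 6.62, *Gfra2* at 19.4 ± 3.32, *Ntf3* at 5.65 ± 0.744, *Ret* at 3.86 ± 0.359, *Met* at 2.47 ± 0.754 and *Bdnf* at 2.36 ± 0.115 per kilobase (SD, n = 2 each). *Hgf* followed at 0.191 and *Gdnf* at 0. In the control libraries *Ntf3*, *Ret*, *Met* and *Bdnf* rest on 19, 44, 36 and 20 reads. Counting error therefore leaves the order of neighbours among them uncertain. The libraries of *Gfra1* and *Gfra2* overlapped on this scale, as did those of *Met* and *Bdnf*, and the other neighbours down to *Hgf* did not. Per kilobase, receptor transcripts thus outnumbered those of their own ligands in each of the 3 families, from *Ntrk2* over *Bdnf* to *Met* over *Hgf*.

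In *Dnmt1* KO cells, *Gfra2* at 19.3 ± 5.30 stood above *Gfra1* at 7.57 ± 1.66 per kilobase, without overlap between the libraries. *Met* at 5.57 ± 0.666 had moved ahead of *Ret* at 3.90 ± 2.41 and *Ntf3* at 2.98 ± 1.60, although the libraries of *Met* and *Ret* and those of *Ret* and *Ntf3* overlapped. *Ntrk2* at 204.1 ± 1.46 and *Ntrk3* at 33.8 ± 4.29 per kilobase kept the first and second place. The lengths used range from 1594 bases for *Ntf3* to 19838 bases for *Ntrk3*, and a level per kilobase depends on which transcript the cells make.

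**Figure D2:**
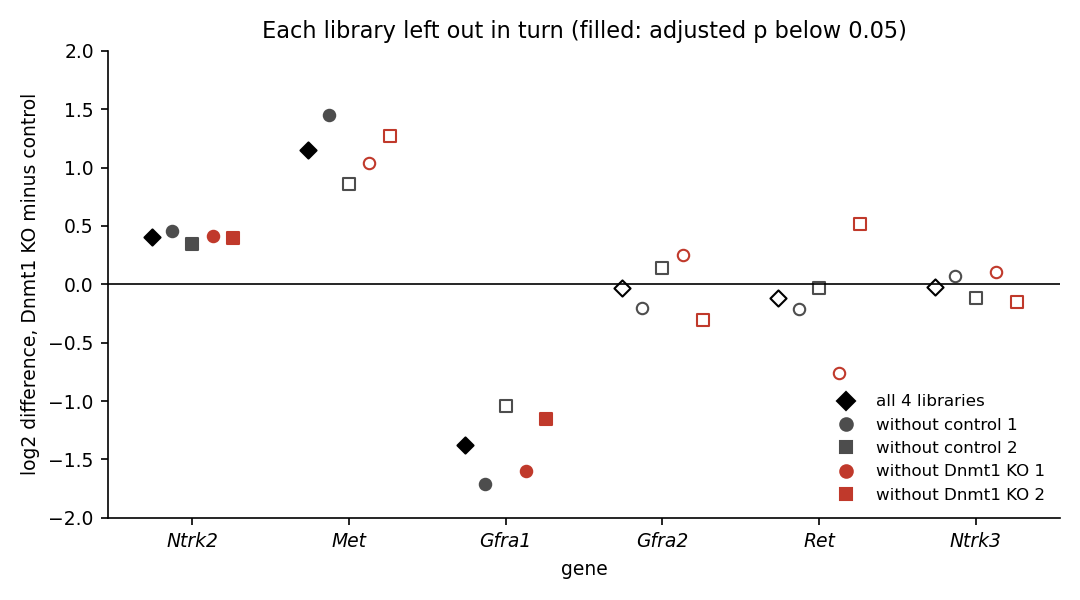
log2 difference between *Dnmt1* KO and control cells (y axis) for the 6 genes tested, with all 4 libraries (diamonds) and with each library left out in turn (circles and squares). Filled symbols have a limma adjusted p below 0.05. *Ntrk2* stays filled throughout, *Gfra1* is open at -1.04 without control replicate 2, *Met* is filled only with all libraries and without control replicate 1, and *Gfra2*, *Ret* and *Ntrk3* lie on both sides of 0.

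The other genes of the 3 ligand families were taken from lists of 16 genes for HGF, 17 for GDNF and 21 for the neurotrophins. Of the 6 HGF genes tested, *Nrp1* alone was called, or 16.7% against 17.3% of all genes tested. It encodes neuropilin-1, a semaphorin and VEGF receptor that can also bind HGF. Its normalized counts were 331 and 327 in control and 259 and 241 in KO libraries, a difference of -0.39 (SE 0.108, limma adjusted p = 0.0207). It was not called by DESeq2 (adjusted p = 0.151) and only in 1 of the 4 fits that left out a library. *Plat* and *Spint2*, which encode a protease and a protease inhibitor of HGF activation, and *Plxnb1*, whose product can pair with MET, had differences of -0.21, 0.53 and 0.03 and were not called. The related receptor gene *Mst1r* was near the detection limit in control libraries, at 4.47 and 6.13, and had 5.92 and 16.4 in KO libraries.

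The GDNF list held 4 genes that rose and 2 that fell among 12 tested, beside 8.3% and 8.99% over all genes tested. *Ncam1*, which encodes the adhesion molecule that serves as an alternative GDNF receptor, had normalized counts of 8063 and 7832 in control and 10088 and 10350.1 in KO libraries, a difference of 0.36 (SE 0.040, limma adjusted p = 1.5e-05). *St8sia2* and *St8sia4*, the enzymes that attach polysialic acid to NCAM, differed by 0.36 and 0.43 (limma adjusted p = 0.00060 and 0.0020). For *St8sia4* the normalized counts were 489 and 485 in control and 658 and 653 in KO libraries. Its difference shrank to 0.09 (limma adjusted p = 0.545) after correction for the length and GC content of transcripts within each library, whereas that of *St8sia2* was 0.40. *Sdc3*, a heparan sulfate proteoglycan that binds GDNF, differed by 0.22 (limma adjusted p = 0.0088).

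*Gas1*, a membrane protein related to the GFRα receptors that binds RET and also acts as a hedgehog co-receptor, had 108 and 65.3 in control and 25.6 and 27.3 in KO libraries. The difference of -1.63 (SE 0.282, limma adjusted p = 0.00093) was of the same sign as that of *Gfra1*. *Dok5*, an adaptor of RET, differed by -0.80 (limma adjusted p = 0.0412) and was not called by DESeq2 (adjusted p = 0.236), after quantile normalization (limma adjusted p = 0.0781) or with the correction for length and GC content (limma adjusted p = 0.0732). It was called in 1 of the 4 fits that left out a library. *Gfra4* was not called, with a difference of 0.09. The neurturin gene *Nrtn* had normalized counts of 0.895 and 0 in control and 6.90 and 5.46 in KO libraries. With the required mean lowered to 1, its difference was 2.38 (SE 0.798, limma adjusted p = 0.0631). *Artn* and *Gfra3*, like *Pspn* and *Gfral*, were at or near 0 in control libraries, and *Pspn* and *Gfral* had no read in any library.

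Of 18 neurotrophin genes tested, 1 rose and 1 fell, or 11.1% in all against 17.3% of all genes. *Kidins220*, a scaffold that Trk receptors phosphorylate, had 5776 and 5902 in control and 7154 and 7455 in KO libraries, with a difference of 0.32 (SE 0.043, limma adjusted p = 9.1e-05). *Bex3*, whose product binds the p75 neurotrophin receptor, had 2026 and 2082 in control and 1615 and 1673 in KO libraries, with a difference of -0.32 (SE 0.057, limma adjusted p = 0.0011). The p75 gene *Ngfr* itself was at 101 and 102 in control and 107 and 75.4 in KO libraries, a difference of -0.18 (limma adjusted p = 0.598). The pro-neurotrophin receptor genes *Sort1*, *Sorcs1*, *Sorcs2* and *Sorcs3* had differences of -0.08, 0.01, -0.13 and -0.16 and were not called.

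**Figure D3:**
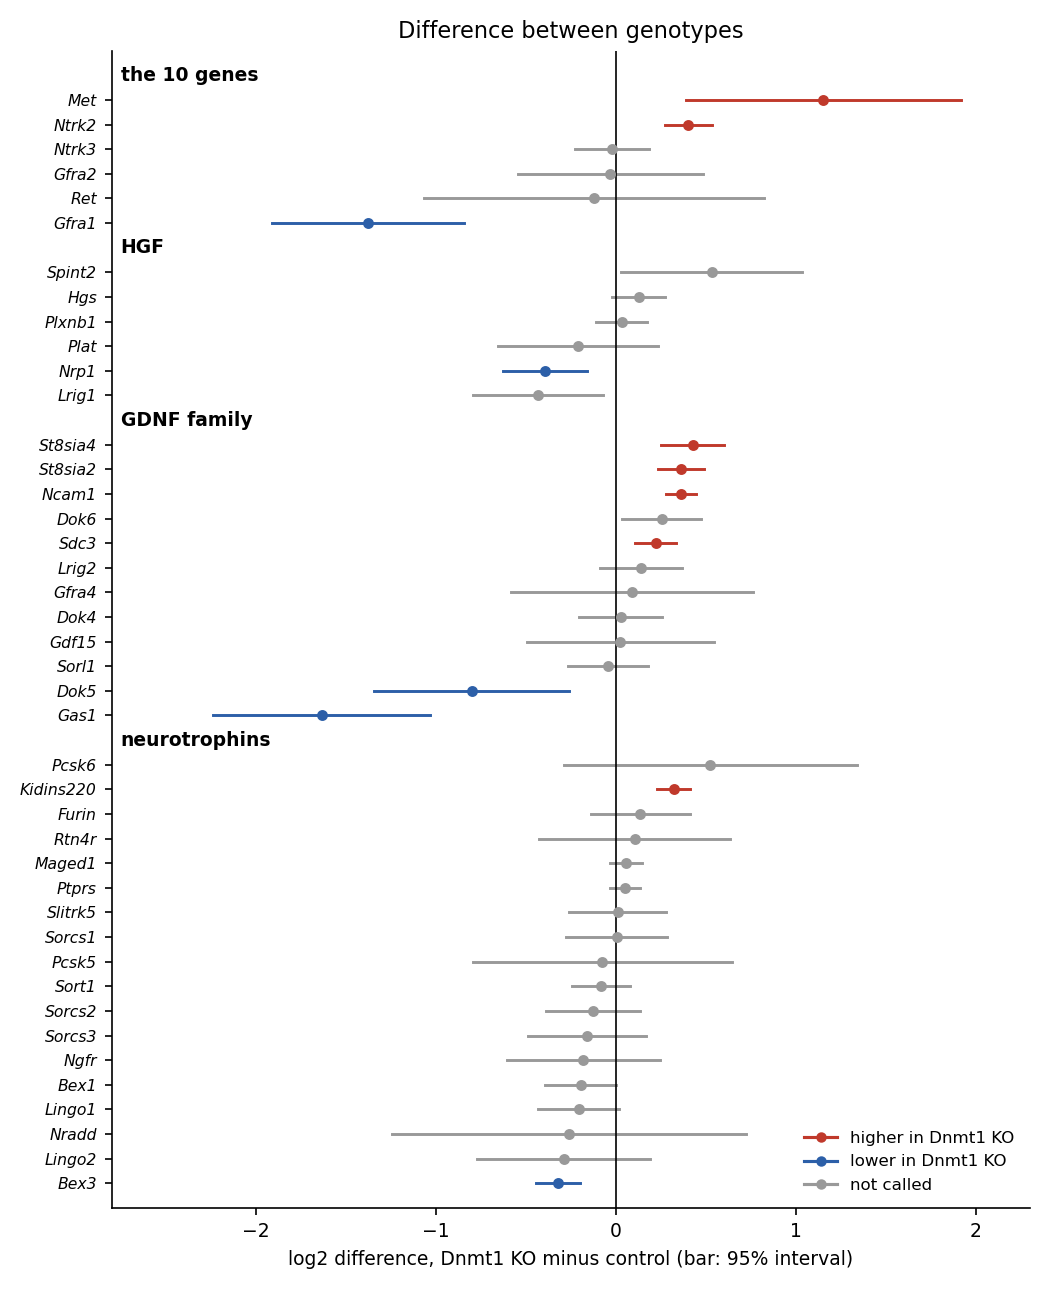
log2 difference between *Dnmt1* KO and control cells (x axis) with its 95% interval from limma for the tested genes among the 10 and for the tested ligands, receptors and associated proteins of the 3 families. Red marks genes called as higher, blue as lower and grey those not called, with *Gas1* at -1.63 and *Gfra1* at -1.38 furthest to the left and *Met* at 1.15 furthest to the right.

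Downstream of the receptors, 3 further lists were counted. Of 28 adaptor genes tested, *Fyn*, a SRC family kinase that NCAM and Trk signalling use, was the 1 called, at a difference of 0.20 (limma adjusted p = 0.0266). This is 3.57% of the list. Of 22 genes of the RAS-ERK and AKT cascades, 4 rose and 0 fell, that is 18.2%, close to the 17.3% called over all genes tested. They included the kinase genes *Braf* at 0.34 and *Pdpk1* at 0.27, and *Nf1* at 0.25, which encodes a RAS GTPase activator that restrains RAS (limma adjusted p = 0.0216, 0.0385 and 0.0101). With the same correction for length and GC content, the differences were 0.21 for *Braf* and 0.15 for *Nf1*, and none of the 4 was called.

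Among 14 tested feedback inhibitors and transcriptional targets of ERK, 4 rose and 1 fell, against 8.3% higher and 8.99% lower over all genes tested, and the median difference of the list was 0.37. *Dusp4*, an ERK phosphatase, had 1097 and 1068 in control and 1410 and 1382 in KO libraries, a difference of 0.37 (limma adjusted p = 0.00091). *Spred2* and *Spred3*, inhibitors of RAS-ERK signalling, differed by 0.43 and 0.45 (limma adjusted p = 0.0168 and 0.0237). DESeq2 called neither (adjusted p = 0.0798 and 0.152). *Spred2* was at 0.27 without control replicate 2 (limma adjusted p = 0.167), and *Spred3* was called in 1 of the 4 fits that left out a library. *Etv1*, an ETS transcription factor, differed by 0.37 at a limma adjusted p of 0.0498, which is just under the threshold, and was called in none of the fits that left out a library. *Spry1*, another feedback inhibitor, fell from 117 and 88.8 to 56.2 and 40.4, a difference of -1.08 (limma adjusted p = 0.0049), and was not called without control replicate 1 (adjusted p = 0.0873).

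Over all 6 lists, 100 of the 120 genes with a row were tested, 14 rose, 5 fell and 81 were not called, so that 19 genes or 19.0% were called, against 17.3% of all genes tested. Their median difference was 0.05. All 19 kept their direction when each library was left out in turn, 7 were called in all 4 of these fits and *Etv1* and *Fyn* in none. The number called was 12 without control replicate 1, 12 without control replicate 2, 10 without KO replicate 2 and 10 in DESeq2. The share of genes called over these lists was close to that of all genes.

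**Figure D4:**
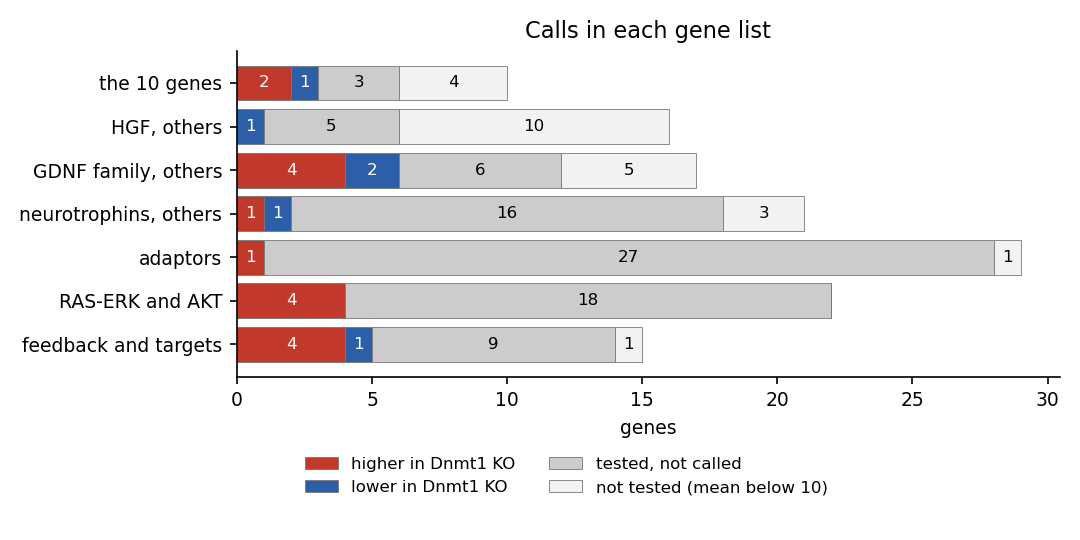
Number of genes (x axis) in each list that were higher (red) or lower (blue) in *Dnmt1* KO cells, tested but not called (grey), or not tested for a mean normalized count below 10 (pale). The GDNF family list holds 6 called genes of 12 tested, the adaptors 1 of 28. Over all genes tested, 17.3% were called.

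Markers of several cell types moved with genotype, and their part in the differences above was not tested. The 16 SST interneuron markers were all called as higher in KO libraries, and their median difference was 0.63. Their summed normalized counts were 28944 and 29021 in control and 44757 and 45220.3 in KO libraries, a ratio of 1.55 between the means. The ratio of *Ntrk2* was 1.32, below that of these markers, and the ratio of *Met* was 2.26, above it. The ratios of *Ntrk3* and *Gfra2* were 0.987 and 0.991. Which of the sorted cells carried the reads of these genes was not tested.

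The summed markers of radial glia were 11427 and 11482 in control and 7029.8 and 7088 in KO libraries, with 8 of 11 genes lower and *Sox2* higher. Those of cycling cells fell in 7 of 8 genes, with a ratio of 0.717, and those of basal forebrain cholinergic neurons in 4 of 7 tested, with a ratio of 0.633, although *Chat* itself was near 0 in every library. The striatal markers fell in 5 of 9 tested (ratio 0.703), counting *Isl1*, which is also among the cholinergic markers that fell. The pallial excitatory markers fell in 9 of 12, with a median difference of -0.93. Their summed counts had a ratio of 0.958, since *Bcl11b*, the most abundant of them, rose from 3349 and 3317 in control to 4596 and 4514 in KO libraries. None of the 4 tested oligodendrocyte precursor markers was called (ratio 0.663).

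Markers of cells outside the neural lineage were low but present in control libraries and lower in KO libraries. Endothelial markers summed to 507 and 532 in control and 202 and 227 in KO libraries, with 7 of 7 tested genes lower, and mesenchymal and mural markers to 421 and 450.2 and to 197 and 208, with 5 of 7 lower. Microglial markers fell in 2 of 4 tested (ratio 0.381), and erythroid markers in 8 of 8 (ratio 0.234). The ratios were 0.374 for *Gfra1*, 0.305 for *Gas1*, 0.317 for *Bdnf* and 0.528 for *Ntf3*. Those of the summed endothelial, mesenchymal and microglial markers were 0.413, 0.465 and 0.381, and that of the radial glia markers was 0.616. Among the radial glia markers, *Vim* and *Nes* had ratios of 0.490 and 0.489 and *Sox2* 1.32. Low ratios were thus not particular to markers outside the neural lineage. Whether cells of these types carried the *Gfra1*, *Gas1*, *Bdnf* or *Ntf3* reads was not tested, and in bulk libraries fewer cells of a type and less RNA per cell cannot be told apart.

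**Figure D5:**
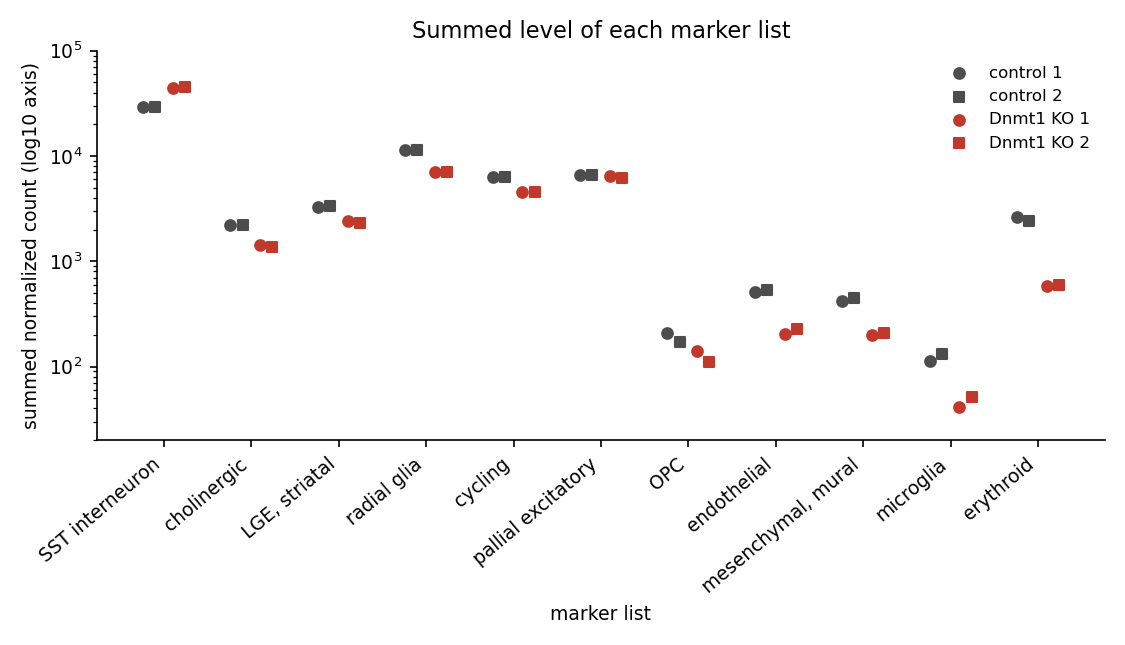
Summed normalized count of each marker list (y axis, log10 scale) in the 2 control (grey) and 2 *Dnmt1* KO (red) libraries. The SST interneuron list lies higher in both KO libraries and the other lists lie lower, down to a ratio of 0.234 for erythroid markers. The sum of the pallial excitatory list (ratio 0.958) holds the rise of *Bcl11b*, whereas the median difference of its genes was -0.93.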

How the data were processed

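RNA was taken from sorted tdTomato-positive cells at E14.5, with 2 libraries per genotype grouped by the sample labels. Libraries were made from total RNA with a stranded kit, and rRNA sequences were depleted after a first amplification. For alignment (STAR, GRCm39) the authors used reads trimmed by Trim Galore. Gene counts came from Salmon and were normalized in DESeq2 1.32.0 under R 4.3.2. The deposited signal is thus a normalized count per gene and library. All 89965 values above 0 (100%) came out as whole reads within 0.0001 of a read. All 4 library columns were used.

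Genes whose normalized count averaged 10 or more were tested with limma 3.58.1 in R 4.3.3 (variance trend, genotype as the only term, Benjamini-Hochberg adjustment, threshold 0.05) on log2(value + 1). On recovered reads, edgeR 4.0.16 called 2528 genes, DESeq2 1.42.0 called 1317 and limma 2476 on the deposited values. An exact permutation test of 2 against 2 libraries cannot go below p = 0.333 and was not used. Other alternatives were pseudocounts of 0.5 and 10, means of at least 1 and 50, TMM, quantile normalization, no variance trend, limma-voom, removal of length and GC trends (spline, 5 degrees of freedom), a replicate block and each library left out. With a library left out, the lone library is assumed to vary like the others. All fits were first tested on simulated data. Libraries of a genotype differed by more than sampling noise (chi-square per degree of freedom 2.71 and 2.31), so none is a copy. Level per kilobase used the representative transcript of GENCODE M39. Python 3.11.15 and matplotlib 3.10.9 drew the figures.

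All 10 genes are named, the ligands, receptors and co-receptors of the 3 family lists, and of the other lists up to 4 called genes per direction with the largest difference, plus *Dnmt1* and, of each marker list, the 3 most abundant genes and those at or near 0. The members, lists and rule were chosen with earlier results of these data known. One listed gene, *Spry3*, was not analysed here. Some items named by this rule are left unreported.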

Additional observations from a re-analysis of the deposited data

How the results depend on the processing

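With 2 libraries per genotype, the spread rests on 2 values per group, and genes with few reads, among them *Met* and *Ret*, have wide intervals. The direction of *Ntrk2*, *Met* and *Gfra1* held under every alternative run, except that *Met* fell below the mean of 50 and was not fitted there. Without the variance trend limma called 0 genes, 0 of the 6 members and 0 pathway genes, at unadjusted p below 0.05 for 3339, 3 and 17. DESeq2 called 1317 genes and 10 pathway genes in place of 2476 and 19. Leaving out single libraries, the counts ranged from 1525 to 2205 for all genes, from 1 to 3 for the members and from 10 to 16 for pathway genes, with 1648 genes without control replicate 1, 1525 genes and 1 member without control replicate 2, 12 pathway genes without control replicate 1 and again without control replicate 2, and 10 without *Dnmt1* KO replicate 2. The other alternatives, including edgeR, limma-voom, TMM and quantile scaling, gave 2244 to 2957 genes, 2 or 3 members and 13 to 20 pathway genes. The cause was not tested.

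Differences that were not called changed sign. *Gfra2* was at 0.065 after quantile normalization and 0.013 with length and GC trends removed, and ranged from -0.31 to 0.25 without single libraries. *Ret* was at 0.036 in edgeR and 0.026 in DESeq2, and ranged from -0.76 to 0.52 without single libraries. *Ntrk3* ranged from -0.15 to 0.11 without single libraries and was at -0.22 with length and GC trends removed (limma adjusted p = 0.125). The labels do not say whether same-numbered libraries were processed as pairs. Deviations of same-numbered libraries from their genotype means correlated at -0.085. With 2 libraries per genotype this is a single value, which cannot settle whether they pair. The fit with the replicate block called 2957 genes, 20 pathway genes and the same number of members, 3.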
